A study of Mus musculus with 7 samples.

Results

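The genes described here are 10 neuropilin, semaphorin and plexin genes, taken by name from a table of 57180 mouse genes, in which each of the 10 names matched a single row. They are the neuropilins Nrp1 and Nrp2, the semaphorins Sema4a, Sema4b, Sema4d and Sema7a, and the plexins Plxnb2, Plxnc1, Plxnd1 and Plxna1. RNA was measured in bulk in regulatory T cells (Treg cells, CD4 T cells that restrain immune responses under the transcription factor FOXP3) sorted from B16-F0 tumours, a transplanted mouse melanoma. FOXP3-high cells (3 libraries) were compared with FOXP3-low cells (4 libraries). Every library came from tumour-bearing mice that carry Foxp3-Cre-YFP, in which Cre recombinase and a yellow fluorescent reporter are driven by Foxp3; the genotype is given as WT, and no other allele or agent is named. The sources used here do not give the age of the mice, the sort gates or the number of mice behind a library. The p-values therefore measure only the spread between these libraries, which may be technical.

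Semaphorins are secreted or membrane-bound cues, first known from axon guidance, that act through plexins on the receiving cell. Plexins switch off small GTPases of the Ras and Rap families, and so change adhesion and the cytoskeleton. Neuropilins have short cytoplasmic tails and serve as co-receptors, for class 3 semaphorins together with A-type plexins and for vascular endothelial growth factor (VEGF). In mouse T cells, Nrp1 is best known as a surface marker of thymus-derived Treg cells and as a receptor for SEMA4A that helps Treg cells persist in tumours.

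All values are counts per 1000000 (CPM) on library sizes normalized by TMM, a method that assumes most genes do not differ. A gene was called when edgeR's quasi-likelihood test gave a Benjamini-Hochberg adjusted p under 0.05 over all 15838 genes tested. Of the 10 members, 2 were higher in FOXP3-high (Nrp1 and Plxna1), 3 were lower (Sema4a, Sema7a and Plxnb2) and 5 did not pass. Across all genes tested, 46.5% were called, with 21.8% higher and 24.6% lower, so that the share of members called is close to that of genes in general. The libraries of the groups did not overlap in 6 of the 10 members, against 50.7% of all genes tested (23.9% with FOXP3-high above and 26.8% with it below). The median log2 fold change was -0.19 over the members and 0.01 over all genes. All 10 members passed the filter on low counts, and the lowest single count behind a member was 50, of Sema7a in FOXP3-high replicate 2.

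**Figure D1:**
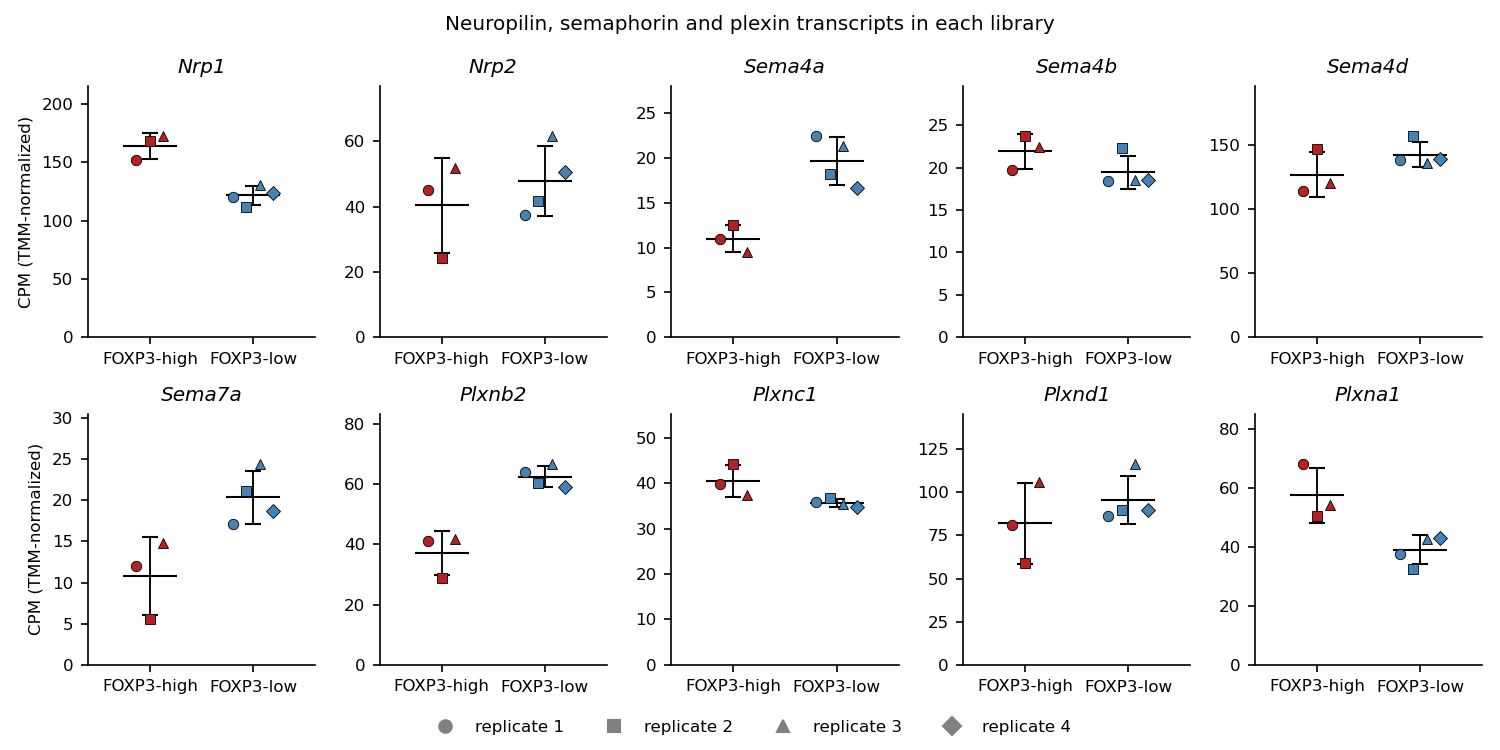
Each panel plots 1 gene in CPM (vertical axis from 0) for the 3 FOXP3-high (red) and 4 FOXP3-low (blue) libraries, with symbols for the replicate number and bars for the mean ± SD. Nrp1 and Plxna1 lie higher and Sema4a, Sema7a and Plxnb2 lower in every FOXP3-high library than in any FOXP3-low library.

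Total counts were 9048771 to 11202260 in FOXP3-high and 12177761 to 14546999 in FOXP3-low. Foxp3 checked the labels, at 698 ± 95.4 CPM in FOXP3-high and 357 ± 44.3 CPM in FOXP3-low (SD, n = 3 and 4). The libraries carry T cell and Treg genes but also RNA of other cells, in amounts that differ between the groups. Of 17 T cell identity genes, 15 were higher in FOXP3-high and 1, Thy1, was lower, and their sum ran from 5313 to 6043 CPM there and from 3923 to 4352 CPM in FOXP3-low. Of 15 macrophage and monocyte genes 14 were lower; the exception, Ccr2, is also a T cell homing receptor. Without Ccr2, left out after its values were seen, the macrophage sum was 232 to 341 CPM in FOXP3-high and 2232 to 2779 CPM in FOXP3-low. All 8 dendritic cell genes were lower too, all 8 tested melanoma genes higher and all 10 cell cycle genes lower. The 10 endothelial genes gave no call and varied by library: their sum was 228, 74.7 and 422 CPM in FOXP3-high replicates 1 to 3, and 93.0, 123, 392 and 128 CPM in FOXP3-low replicates 1 to 4. In such bulk samples, fewer cells of a type and less RNA per cell cannot be told apart.

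Nrp1 was the most abundant receptor of the set by counts and rose modestly in FOXP3-high. Nrp1 (ENSMUSG00000025810, chromosome 8, 129085085 to 129229844, plus strand, GRCm39) stood at 152, 169 and 173 CPM in FOXP3-high replicates 1 to 3 and at 121, 112, 131 and 124 CPM in FOXP3-low replicates 1 to 4. The lowest FOXP3-high library lay above the highest FOXP3-low library. The means were 164 ± 11.0 CPM in FOXP3-high and 122 ± 7.91 CPM in FOXP3-low (SD, n = 3 and 4). The log2 fold change was 0.43 ± 0.068 (SE), a 1.35-fold difference (edgeR adjusted p = 0.000605). T cell identity genes moved in the same direction by about as much, with a median log2 fold change of 0.46. Per 1000 CPM of those 17 genes, Nrp1 was at 29.3 ± 2.79 in FOXP3-high and 29.2 ± 3.15 in FOXP3-low, and the groups overlapped. When libraries were scaled to T cell identity genes in place of TMM, the Nrp1 call was lost (log2 fold change 0.0050, edgeR adjusted p = 0.97). That scaling moved the median of all genes by -0.42. Relative to this median Nrp1 stayed at 0.42 under both scalings. This follows from a rescaling that shifts all genes nearly alike, and it cannot show which scaling is right. Foxp3 rose further than Nrp1, so that the ratio of Nrp1 to Foxp3 CPM was 0.238 ± 0.0308 in FOXP3-high and 0.346 ± 0.0612 in FOXP3-low. Because FOXP3 defines the groups, this ratio falls for any gene that rises less than Foxp3, and the fall is not particular to Nrp1.

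Nrp2, the second neuropilin, which binds a different set of class 3 semaphorins and VEGF family ligands, varied more among libraries of a group than between the group means. Nrp2 (ENSMUSG00000025969, chromosome 1, 62742444 to 62857854, plus strand, GRCm39) was at 45.2, 24.2 and 52.0 CPM in FOXP3-high replicates 1 to 3 and at 37.4, 41.8, 61.6 and 50.8 CPM in FOXP3-low replicates 1 to 4. The groups overlapped, and both the lowest value and the next to highest belonged to FOXP3-high libraries. The log2 fold change was -0.24 with a 95% interval of -0.80 to 0.32 (edgeR adjusted p = 0.465), and without FOXP3-high replicate 2 it was 0.045. That library also had the lowest endothelial sum, and the libraries numbered 3 had the highest endothelial sum and the highest Nrp2 of their groups. The part of endothelial RNA in Nrp2 was not tested.

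The neuropilins differed in their start regions as well as in their levels. Below are the 250 bases before the RefSeq start site of each neuropilin and of Sema7a, the member with the largest fall, from RefSeq on GRCm38.p6 (a different build from that of the gene coordinates above), plus strand in each case. They are shown because Nrp1 rose, Nrp2 gave no call and Sema7a fell, and no link between sequence and direction was tested. Capitals mark matches to GGGCGG or its reverse complement, the GC box.
Nrp1, chr8:128358823-128359072: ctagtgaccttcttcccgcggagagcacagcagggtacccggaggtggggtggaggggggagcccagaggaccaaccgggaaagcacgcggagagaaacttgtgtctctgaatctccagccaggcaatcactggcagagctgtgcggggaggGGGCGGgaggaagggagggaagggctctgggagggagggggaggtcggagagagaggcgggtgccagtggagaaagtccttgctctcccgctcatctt
Nrp2, chr1:62703067-62703316: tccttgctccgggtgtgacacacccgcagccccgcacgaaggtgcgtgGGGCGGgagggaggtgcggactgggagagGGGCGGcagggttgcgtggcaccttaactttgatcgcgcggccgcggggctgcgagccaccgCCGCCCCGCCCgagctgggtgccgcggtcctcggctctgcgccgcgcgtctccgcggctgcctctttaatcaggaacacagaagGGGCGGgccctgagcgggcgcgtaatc
Sema7a, chr9:57939862-57940111: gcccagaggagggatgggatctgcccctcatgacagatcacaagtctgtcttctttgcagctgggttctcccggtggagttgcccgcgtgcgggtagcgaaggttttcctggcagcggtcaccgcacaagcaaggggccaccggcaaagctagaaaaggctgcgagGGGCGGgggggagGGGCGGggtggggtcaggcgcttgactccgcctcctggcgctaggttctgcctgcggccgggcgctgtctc

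The Nrp1 window held 1 GC box and 11 CG dinucleotides, the Nrp2 window 5 (of which 2 share a base) and 32, and the Sema7a window 2 and 17. RefSeq start regions were found for 9 of the 10 members, in 16 windows, since Sema4a, Sema4b, Sema4d and Plxnb2 have several; Plxna1 was not matched. A GC box was present in 13 of the 16 windows, against 32.7% of all 32851 RefSeq windows of the same length. Windows of the same gene are not independent, and 2 of the Sema4a windows share bases. The members are all expressed here, while the background holds every RefSeq window, and expressed genes alone were not used as a background. The other 6 motifs were searched on both strands in the same way as the GC box. The forkhead motif TGTTTAC was in 0 of 16 member windows and 3.17% of all windows, the RUNX motif TGTGGTT in 0 and 4.40%, the ETS motif CCGGAAGT in 0 and 2.88%, and the CRE TGACGTCA in 0 and 1.55%. The AP-1 motif TGANTCA was in 1 window, of Sema4d (6.75% of all), and the E-box CACGTG in 1 window, of Sema4b (6.02% of all). These matches describe letters in the windows and no binding was measured.

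Sema4d was the most abundant semaphorin in both groups and did not pass the test. It encodes CD100, the main semaphorin of resting T cells, which is shed from the surface and acts on B-type plexins and, in immune cells, on CD72. Sema4d (ENSMUSG00000021451, chromosome 13, 51839565 to 51947783, minus strand, GRCm39) was at 114, 147 and 120.4 CPM in FOXP3-high and at 138, 157, 136 and 139 CPM in FOXP3-low. In each group replicate 2 was the highest, and FOXP3-high replicate 2 lay above 3 of the 4 FOXP3-low libraries. The log2 fold change was -0.17 with a 95% interval of -0.37 to 0.035 (edgeR adjusted p = 0.159). It became a call without FOXP3-high replicate 2 (log2 fold change -0.26, edgeR adjusted p = 0.0191). Scaling to T cell identity genes also made it a call (-0.60, edgeR adjusted p = 9.40e-05).

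Sema4a, the semaphorin that binds NRP1 on Treg cells and plexin-D1, and that dendritic cells and activated T cells make, was lower in FOXP3-high. Sema4a (ENSMUSG00000028064, chromosome 3, 88343266 to 88368489, minus strand, GRCm39) was at 11.0, 12.5 and 9.53 CPM in FOXP3-high and at 22.4, 18.2, 21.3 and 16.6 CPM in FOXP3-low. All FOXP3-high libraries lay below all FOXP3-low libraries. This was a log2 fold change of -0.84 ± 0.14 (SE), or 1.79-fold lower in FOXP3-high (edgeR adjusted p = 0.000979). The call held in all 17 alternatives run, with log2 fold changes from -1.27 (T cell identity scaling) to -0.71. Macrophage and dendritic cell genes fell in the same libraries by much more, with medians of -4.16 and -2.82, and their part in Sema4a was not tested.

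Sema7a, a semaphorin anchored to the membrane by glycosylphosphatidylinositol that acts on plexin-C1 and beta-1 integrins, fell further but with more spread. Sema7a (ENSMUSG00000038264, chromosome 9, 57847395 to 57870148, plus strand, GRCm39) was at 12.0, 5.57 and 14.8 CPM in FOXP3-high and at 17.1, 21.1, 24.4 and 18.7 CPM in FOXP3-low. FOXP3-high replicate 2 was far below the other libraries, and replicate 3 was the highest of each group. On the log2 scale the fall was -0.91 ± 0.27 (SE; edgeR adjusted p = 0.0211). Without FOXP3-high replicate 2 it was -0.58 (edgeR adjusted p = 0.0212), and without FOXP3-low replicate 2 the call was lost (-0.87, edgeR adjusted p = 0.0550). The endothelial sum was likewise lowest in FOXP3-high replicate 2 and highest in the libraries numbered 3. The median log2 fold change of endothelial genes was 0.31, without a call. Macrophage, dendritic cell and cell cycle genes fell in FOXP3-high, with medians of -4.16, -2.82 and -1.97. The part of any of these in Sema7a was not tested. Without both libraries numbered 3 the Sema7a log2 fold change was -1.09 (edgeR adjusted p = 0.00956).

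Sema4b, a membrane semaphorin of the same class as Sema4a and Sema4d, gave no call. Sema4b (ENSMUSG00000030539, chromosome 7, 79836589 to 79876159, plus strand, GRCm39) was at 19.7, 23.7 and 22.5 CPM in FOXP3-high and at 18.4, 22.4, 18.5 and 18.6 CPM in FOXP3-low. FOXP3-low replicates 1, 3 and 4 were nearly level and replicate 2 stood above them, within the FOXP3-high range. On the log2 scale the difference was 0.17 with a 95% interval of -0.069 to 0.41 (edgeR adjusted p = 0.223), and its sign turned with T cell identity scaling (-0.25, edgeR adjusted p = 0.0692).

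Among the plexins, Plxnb2 fell and Plxna1 rose. Plxnb2, a receptor for class 4 semaphorins including SEMA4C and SEMA4D, is widely expressed in myeloid and epithelial cells. Plxnb2 (ENSMUSG00000036606, chromosome 15, 89039752 to 89064991, minus strand, GRCm39) was at 41.0, 28.8 and 41.6 CPM in FOXP3-high and at 63.8, 60.2, 66.6 and 59.1 CPM in FOXP3-low. The FOXP3-low libraries were close together, and the highest FOXP3-high library was well below the lowest of them. Plxnb2 had a log2 fold change of -0.75 ± 0.12 (SE), or 1.68-fold lower in FOXP3-high (edgeR adjusted p = 0.000836). The call held in all 17 alternatives run, from -1.16 under T cell identity scaling to -0.57 without FOXP3-high replicate 2. The direction of Plxnb2 was that of the macrophage genes, whose part in Plxnb2 was not tested.

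Plxna1, the plexin that pairs with neuropilins to read class 3 semaphorins, had the largest rise of the members with all 7 libraries. Plxna1 (ENSMUSG00000030084, chromosome 6, 89293296 to 89339602, minus strand, GRCm39) was at 68.0, 50.3 and 54.0 CPM in FOXP3-high and at 37.5, 32.6, 42.6 and 43.0 CPM in FOXP3-low. No library of FOXP3-high overlapped FOXP3-low, and FOXP3-high replicate 1 was the highest. Plxna1 had a log2 fold change of 0.56 ± 0.13 (SE), a 1.48-fold difference (edgeR adjusted p = 0.00522). Without FOXP3-high replicate 1 it was 0.40 (edgeR adjusted p = 0.0321), below that of Nrp1 at 0.46. With T cell identity scaling Plxna1 was at 0.14 and not a call (edgeR adjusted p = 0.490). Melanoma genes rose in the same libraries, with a median log2 fold change of 1.11, and their part in Plxna1 was not tested.

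The 3′ part of Plxna1, from 89293296 to 89304603, is also covered on the opposite strand by the gene model Gm26811 (chromosome 6, 89281612 to 89304603, plus strand, GRCm39). Gm26811 counts stood at 36.5% to 39.0% of Plxna1 counts in FOXP3-high libraries and at 35.5% to 38.5% in FOXP3-low libraries. Its log2 fold change of 0.58 ± 0.14 (SE; edgeR adjusted p = 0.00779) was close to that of Plxna1. Whether reads were counted by strand is not stated, so reads of this pair cannot be told apart with certainty. No other member shared its span with a gene holding 10% or more as many counts.

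Plxnd1, the most abundant plexin and a receptor for SEMA3E and SEMA4A that is known above all from endothelial cells, varied more among libraries of a group than between the group means. Plxnd1 (ENSMUSG00000030123, chromosome 6, 115931772 to 115971966, minus strand, GRCm39) was at 81.3, 59.2 and 106 CPM in FOXP3-high and at 86.3, 89.6, 116 and 89.7 CPM in FOXP3-low. Replicate 3 was the highest of each group and FOXP3-high replicate 2 the lowest of all, and the endothelial sum was lowest and highest in the same libraries. The log2 fold change was -0.22 with a 95% interval of -0.62 to 0.18 (edgeR adjusted p = 0.358). It was -0.0047 without FOXP3-high replicate 2, and -0.44 and a call without FOXP3-high replicate 3 (edgeR adjusted p = 0.0481). It was also a call with T cell identity scaling (-0.63, edgeR adjusted p = 0.0396).

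Plxnc1, the receptor of SEMA7A, kept to a narrow range and did not pass the test. Plxnc1 (ENSMUSG00000074785, chromosome 10, 94626728 to 94780697, minus strand, GRCm39) was at 39.8, 44.2 and 37.4 CPM in FOXP3-high and at 35.8, 36.7, 35.4 and 34.6 CPM in FOXP3-low. The groups did not overlap, although the gap between FOXP3-high replicate 3 and FOXP3-low replicate 2 was under 1 CPM. The log2 fold change was 0.18 with a 95% interval of 0.011 to 0.35, which did not pass after adjustment (edgeR adjusted p = 0.0780). It passed with upper quartile factors (0.23), total counts (0.25) and without FOXP3-high replicate 3 (0.24), and with T cell identity scaling it passed as lower (-0.25, edgeR adjusted p = 0.0182).

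**Figure D2:**
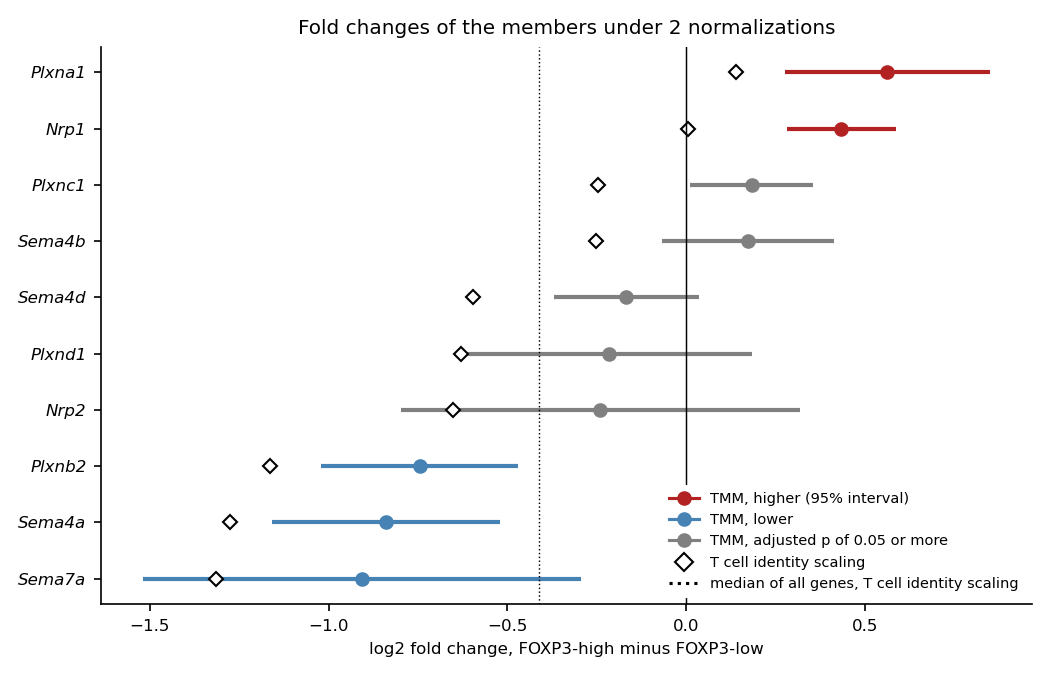
Log2 fold change of each member, FOXP3-high minus FOXP3-low (horizontal axis), as filled points with 95% intervals under TMM and as open diamonds with libraries scaled to T cell identity genes; the dotted line is the median of all genes under that scaling, at -0.41. Scaling moved every member to the left by a similar amount, which took Nrp1 to 0.0050 and Plxna1 to 0.14.

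Set per kilobase of gene length, so that genes can be compared with each other, the order of levels changed at the top between the groups. In FOXP3-high, Nrp1 led with 16.8 ± 1.13 CPM per kilobase and Sema4d followed with 16.5 ± 2.25, with overlapping libraries. Plxnd1 at 11.3 ± 3.20 and Plxna1 at 6.34 ± 1.03 CPM per kilobase came next, each clear of its neighbours. The remaining 6 members lay between 4.85 (Plxnc1) and 2.04 (Sema4a) CPM per kilobase, and every neighbouring pair among them overlapped. In FOXP3-low, Sema4d led with 18.6 ± 1.25 CPM per kilobase, clear of Plxnd1 at 13.1 ± 1.92, which overlapped Nrp1 at 12.4 ± 0.808. Plxnb2 at 8.08 ± 0.446 and Sema7a at 6.17 ± 0.965 CPM per kilobase were each clear of the members next in rank, though Sema7a overlapped Nrp2 further down. The other 5 members lay between 4.30 (Plxna1) and 3.45 (Sema4b) CPM per kilobase, and neighbouring pairs overlapped.

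These levels gave each role a somewhat different make-up, described here without a test. Nrp1 made up 80.2%, 89.4% and 80.1% of the summed neuropilin level per kilobase in FOXP3-high, and 79.6%, 76.4%, 72.0% and 74.7% in FOXP3-low. Sema4d took 64.1% ± 5.12 of the 4 semaphorins in FOXP3-high and 58.4% ± 2.42 in FOXP3-low, and Sema4a took 7.92% ± 0.966 in FOXP3-high and 11.5% ± 1.74 in FOXP3-low. The share of Plxnb2 among the 4 plexins was 17.6% ± 1.03 in FOXP3-high and 27.3% ± 1.42 in FOXP3-low, and that of Plxna1 was 23.4% ± 3.38 in FOXP3-high and 14.5% ± 1.51 in FOXP3-low. The groups did not overlap in 7 of the 10 shares, which are Nrp1 and its complement Nrp2, Sema4a, Sema4b (15.1% ± 0.474 in FOXP3-high and 10.8% ± 0.606 in FOXP3-low), Sema4d, Plxnb2 and Plxna1. They overlapped in the shares of Sema7a, Plxnc1 and Plxnd1. Shares within a role depend on each other, since a fall in some members raises the share of the rest. No background of shares was worked out. In CPM, the groups did not overlap in 50.7% of all genes tested. The nearest libraries were close for Nrp1 (80.1% in FOXP3-high replicate 3 and 79.6% in FOXP3-low replicate 1) and for Sema4d (60.5% in FOXP3-high replicate 3 and 60.1% in FOXP3-low replicate 4).

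**Figure D3:**
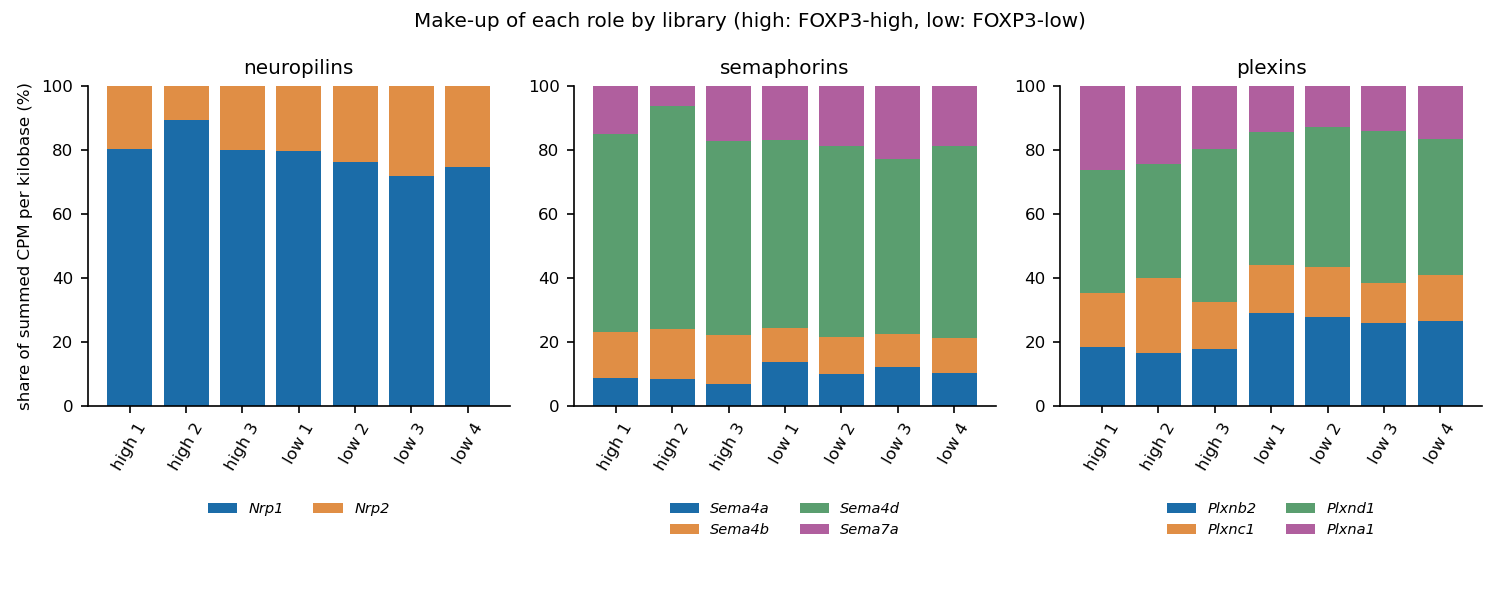
Stacked bars give, for each library (FOXP3-high replicates 1 to 3, then FOXP3-low replicates 1 to 4), the percent of the summed CPM per kilobase of neuropilins, of the 4 semaphorins and of the 4 plexins taken by each member. The Plxnb2 share is smaller and the Plxna1 share larger in all 3 FOXP3-high libraries than in any FOXP3-low library.

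Ligands were also set against their known receptors, by level per kilobase in each library. The level of Sema4a per kilobase was 0.122 ± 0.0188 of that of its receptor Nrp1 in FOXP3-high and 0.293 ± 0.0385 in FOXP3-low, and the groups were well apart. Against its other receptor Plxnd1, Sema4a stood at 0.196 ± 0.0822 in FOXP3-high and 0.281 ± 0.0483 in FOXP3-low, and the groups overlapped. Sema7a was at 0.694 ± 0.347 of its receptor Plxnc1 in FOXP3-high and at 1.44 ± 0.226 in FOXP3-low, without overlap. Sema4d was at 3.60 ± 1.31 times Plxnb2 in FOXP3-high and 2.30 ± 0.246 times in FOXP3-low, again without overlap, with FOXP3-high replicate 2 at 5.11. These ratios were not tested, and both genes of a pair need not come from the same cells.

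Among the other genes of the family the highest mean was that of Sema6d, at 41.2 ± 12.6 CPM in FOXP3-high and 48.0 ± 11.1 CPM in FOXP3-low, which gave no call (edgeR adjusted p = 0.439) and was picked out after its values were seen. Of 21 other semaphorin and plexin genes in the table, 13 passed the filter on low counts, and of these 2 were higher, 1 was lower and 10 gave no call, with a median log2 fold change of 0.06. These shares of 15.4% and 7.69% compare with 21.8% higher and 24.6% lower among all genes tested. Sema4c, a class 4 semaphorin that binds plexin-B2, was lower, at 5.67, 9.46 and 16.5 CPM in FOXP3-high and at 24.1, 21.2, 22.3 and 21.6 CPM in FOXP3-low (log2 fold change -1.08 ± 0.28, edgeR adjusted p = 0.0107). Plxnb1, the high-affinity SEMA4D receptor, was at 8.17, 7.68 and 12.4 CPM in FOXP3-high and at 4.88, 3.66, 6.80 and 4.10 CPM in FOXP3-low (log2 fold change 0.95 ± 0.26, edgeR adjusted p = 0.0128). Sema3b, a secreted semaphorin, averaged 5.24 ± 1.30 CPM in FOXP3-high and 1.85 ± 1.19 CPM in FOXP3-low (log2 fold change 1.50 ± 0.45, edgeR adjusted p = 0.0203). Without FOXP3-high replicate 3 neither rise was a call (edgeR adjusted p = 0.0569 for Plxnb1 and 0.0522 for Sema3b). Sema3b also lost its call without FOXP3-high replicate 1, without FOXP3-low replicate 1 and without both libraries numbered 3 (edgeR adjusted p = 0.0859, 0.0523 and 0.0524), and both calls were lost with T cell identity scaling.

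Other receptors and ligands that share these pathways gave 3 higher and 2 lower of 12 tested. These shares of 25% and 16.7% compare with 21.8% higher and 24.6% lower among all genes tested. Vegfa, the VEGF ligand that binds both neuropilins, was at 113, 77.5 and 106 CPM in FOXP3-high and at 313, 294, 294 and 271 CPM in FOXP3-low. Its groups were far apart (log2 fold change -1.57 ± 0.12, edgeR adjusted p = 5.62e-06). Cd72, a SEMA4D receptor of B cells and myeloid cells, averaged 23.9 ± 2.40 CPM in FOXP3-high and 50.2 ± 12.3 CPM in FOXP3-low (log2 fold change -1.08 ± 0.19, edgeR adjusted p = 0.00110). L1cam, an adhesion molecule that joins neuropilin-1 in semaphorin receptors on neurons, rose to 80.8 ± 5.05 CPM in FOXP3-high, against 36.3 ± 3.65 CPM in FOXP3-low (edgeR adjusted p = 6.32e-06). Met, a receptor kinase that associates with plexin-B1, was at 105 ± 21.2 CPM in FOXP3-high and 57.4 ± 16.7 CPM in FOXP3-low (edgeR adjusted p = 0.00763). Itgb1, the beta-1 integrin chain bound by SEMA7A, was at 379 ± 28.5 CPM in FOXP3-high and 298 ± 39.2 CPM in FOXP3-low (log2 fold change 0.35, edgeR adjusted p = 0.0138), a call lost without FOXP3-high replicate 1 (0.30, edgeR adjusted p = 0.0770). With T cell identity scaling the calls of Met and Itgb1 were lost and the sign of Itgb1 turned (0.46 for Met and -0.078 for Itgb1), while L1cam kept its call at 0.72, against 1.15 under TMM. Cd72 overlaps Tesk1 on the opposite strand and L1cam overlaps Arhgap4 on the same strand and Avpr2 on the opposite one, so their counts are less certain. In the same libraries melanoma genes rose and macrophage genes fell, with median log2 fold changes of 1.11 and -4.16. The part of melanoma or macrophage RNA in Vegfa, Cd72, L1cam, Met and Itgb1 was not tested.

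The VEGF receptors Kdr and Flt1, which work with neuropilins on endothelial cells, gave no call and moved with the library. Kdr was at 25.2, 0.779 and 75.4 CPM in FOXP3-high and at 23.0, 18.7, 53.7 and 17.0 CPM in FOXP3-low. Kdr was lowest in FOXP3-high replicate 2 and highest in the libraries numbered 3, as was the endothelial sum. The part of endothelial RNA in Nrp1 was not tested. The Nrp1 call held in 16 of the 17 alternatives, T cell identity scaling being the exception.

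**Figure D4:**
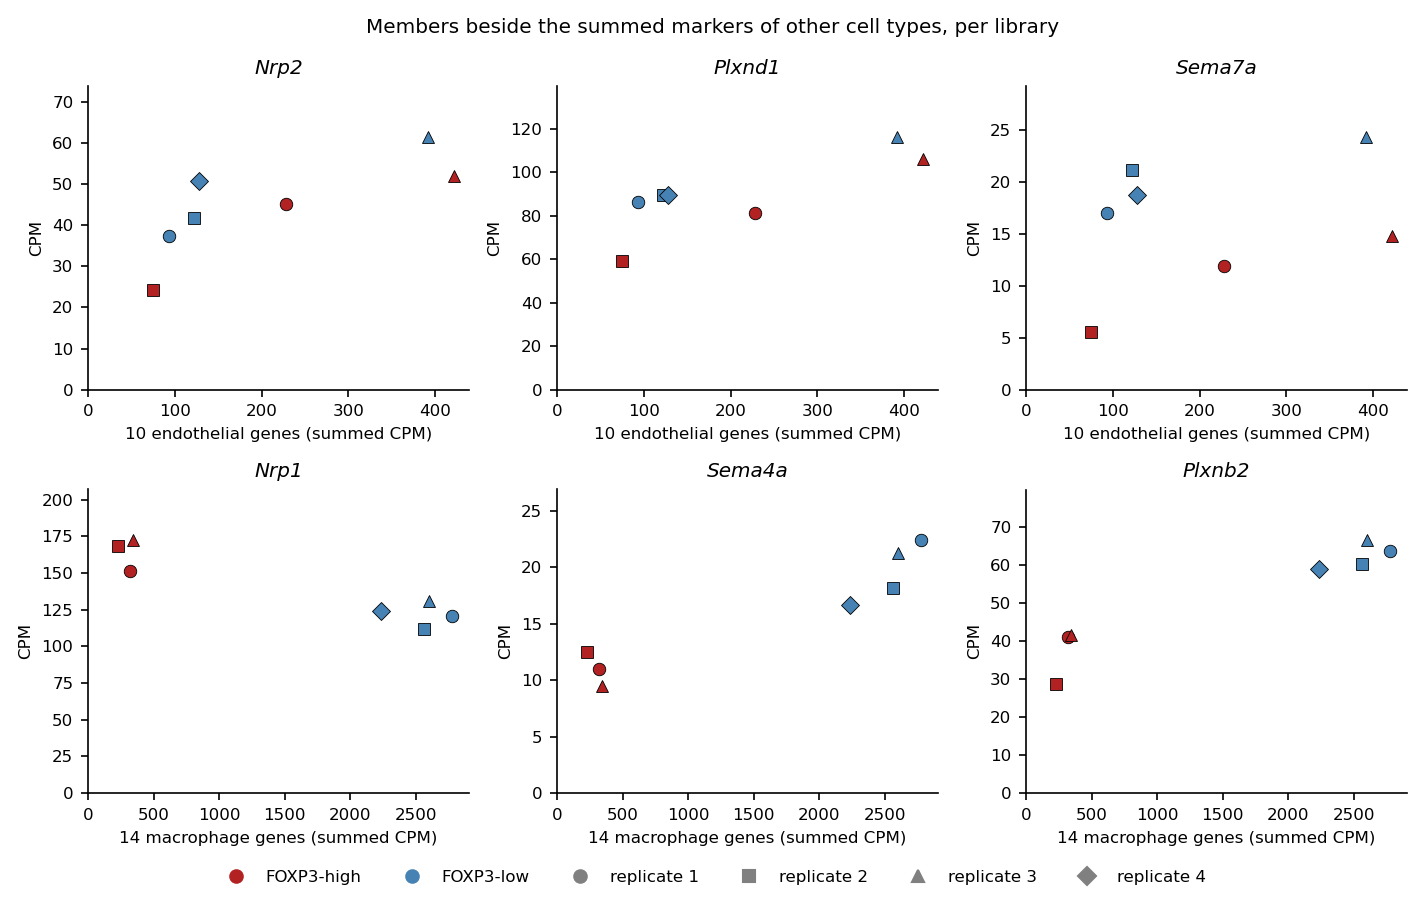
Each point is a library, with the member's CPM on the vertical axis against summed CPM of 10 endothelial genes (top row: Nrp2, Plxnd1, Sema7a) or of 14 macrophage and monocyte genes without Ccr2 (bottom row: Nrp1, Sema4a, Plxnb2). In the top row FOXP3-high replicate 2 is at the lower left and the libraries numbered 3 at the right; in the bottom row the groups separate on the macrophage axis, with Nrp1 higher and Sema4a and Plxnb2 lower in FOXP3-high.

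Of 27 intracellular genes on a list of signalling below plexins and neuropilins, 6 were higher and 6 lower. Their median log2 fold change was 0.07. Each share, 22.2%, lies close to that of all genes tested (21.8% higher and 24.6% lower). Arhgef11, an exchange factor that B-type plexins bind, was at 49.4 ± 1.20 CPM in FOXP3-high and 25.0 ± 2.68 CPM in FOXP3-low (log2 fold change 0.98 ± 0.092, edgeR adjusted p = 2.25e-05). Arhgef12 (LARG), another such factor, was at 133 ± 16.3 CPM in FOXP3-high and 80.5 ± 13.3 CPM in FOXP3-low (log2 fold change 0.72, edgeR adjusted p = 0.00113), a call lost with T cell identity scaling (0.30, edgeR adjusted p = 0.160). Mical3, of the family of actin-oxidizing enzymes below A-type plexins, was at 127 ± 7.98 CPM in FOXP3-high and 71.6 ± 8.37 CPM in FOXP3-low (edgeR adjusted p = 7.27e-05). Its relative Mical1, which overlaps Smpd2 on the opposite strand, rose 0.39 on the log2 scale (edgeR adjusted p = 0.000435), but was at -0.033 and not called with T cell identity scaling. The kinases Fyn and Gsk3b completed the rises, at 0.18 and 0.25 on the log2 scale. With T cell identity scaling Arhgef11 and Mical3 kept their calls at 0.56 and 0.40, against 0.98 and 0.83 under TMM, while Gsk3b turned to -0.18 and lost its call. Fyn turned to -0.25 under that scaling and was called as lower (edgeR adjusted p = 0.00889). In all, 2 of the 27 genes were then higher and 12 lower. Of all 15838 genes tested, 959 were higher and 7585 lower under that scaling, which moved their median by -0.42. Fyn and Gsk3b also lost their calls without a filter on low counts (edgeR adjusted p = 0.0594 and 0.0731). Fyn lost its call without both libraries numbered 3 as well (edgeR adjusted p = 0.0906), and Gsk3b without FOXP3-high replicate 1 (edgeR adjusted p = 0.0839).

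On the lower side, Fes, a myeloid-rich tyrosine kinase that plexin-A1 engages in neurons, was at 7.46 ± 3.68 CPM in FOXP3-high and 46.7 ± 6.22 CPM in FOXP3-low (log2 fold change -2.63 ± 0.27, edgeR adjusted p = 4.21e-05). Pak1, a kinase that Rac activates, was at 1.76 ± 0.523 CPM in FOXP3-high and 13.1 ± 3.92 CPM in FOXP3-low (log2 fold change -2.89 ± 0.31, edgeR adjusted p = 5.38e-05). The GTPase genes Rac1, Rhoa, Rap1a and Rnd3 were lower as well, by -0.43, -0.25, -0.51 and -1.65 on the log2 scale (edgeR adjusted p of at most 0.00685). Under T cell identity scaling Rac1, Rhoa and Rap1a were at -0.86, -0.68 and -0.94. The macrophage genes fell in the same libraries as Fes and Pak1, and their part was not tested.

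The genes whose profile over the 7 libraries was closest to that of Nrp1, by the root mean square difference of log2 CPM centred on each gene, were Mrtfb (0.044), Rabgap1 (0.047), Zfp26 (0.050), Ktn1 (0.054) and Armcx4 (0.054), among the 10741 other genes whose mean reached 5 CPM. Their log2 fold changes, between 0.38 and 0.44, are near that of Nrp1 because the measure of likeness takes in the difference between the groups. For Sema4d the closest were Ints7 (0.029), Tinf2 (0.032), Dclre1a (0.041), Casp4 (0.044) and Tmem39a (0.045), chosen in the same way.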

How the data were processed

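The authors deposited raw counts per gene, as whole numbers, for 7 libraries in 1 table; per the labels' protocols, these were stranded mRNA libraries from TRIzol RNA. fastp 0.23.4, STAR 2.5.3a, featureCounts and the builds GRCh38 and GRCm39 are named, with no roles, per the submitters' processing notes; coordinates are given as GRCm39. The deposited gene length served only for CPM per kilobase. Groups came from sample titles. The members, lists, tests and alternatives were chosen with earlier results of these data known.

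The analysis used R 4.3.3 with edgeR 4.0.16. filterByExpr (minimum count 10, total 15) kept 15838 genes, and TMM and the quasi-likelihood test followed, with no block. The standard errors were worked out from the F statistics and fold changes. At 1 CPM a gene rests on 8.98 to 14.3 counts, and intervals cover the spread between libraries only. Replicates differed beyond counting noise in every pair (chi-square per gene 3.98 to 12.2), so none was merged. Alternatives were 3 other normalizations, T cell identity scaling, 2 filters, DESeq2 1.42.0, limma-voom (limma 3.58.1), leaving out libraries and a replicate block. The step was tested on simulated data.

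Named genes are the 10 members, Foxp3, in each other list of the pathway up to 4 called members with the smallest adjusted p, and the 5 profiles nearest to Nrp1 and to Sema4d; Itgb1, Arhgef12, Mical1, Fyn, Gsk3b, Rac1, Rhoa, Rap1a, Rnd3, Kdr, Flt1 and Sema6d were added after their values were seen. The lists of neutrophil, fibroblast and pericyte, B cell and plasma cell, and CD8 T cell and NK cell markers gave 5 of 5, 0 of 7, 2 of 4 and 3 of 4 tested genes lower and none higher; of 9 Treg genes 7 were higher and 1 lower.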

Additional observations from a re-analysis of the deposited data

Results flagged for a closer look

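In 3 of the 10 members a single FOXP3-low library stood apart from the other 3 of its group by Dixon's criterion at 95%. Chance meets that criterion in about 1 group in 20. Only the FOXP3-low group was examined in this way, and no share over all genes is given. Sema4b was at 22.4 CPM in FOXP3-low replicate 2, with the next library at 18.6 CPM. Sema4d was at 157 CPM in the same library, with the next at 139 CPM. Plxnd1 was at 116 CPM in FOXP3-low replicate 3, with the next at 89.7 CPM; that library also had an endothelial sum of 392 CPM, against 93.0 to 128 CPM in the other FOXP3-low libraries, and the part of endothelial RNA was not tested.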

How the results depend on the processing

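Over 17 alternatives, 156 of the 170 fold changes of members kept their direction and their side of the threshold. The signs that turned were those of Sema4b (-0.25) and Plxnc1 (-0.25) with T cell identity scaling and of Nrp2 without FOXP3-high replicate 2 (0.045; -0.46 to 0.045 over the 7 libraries left out in turn). T cell identity scaling moved the median of all genes by -0.42. Relative to that median Sema4b was at 0.16 and Plxnc1 at 0.17 under both scalings, since the rescaling shifts all genes nearly alike. Which of the signs is right was not tested, and neither was the cause for Nrp2. Members called numbered 6 with T cell identity scaling (0 higher, 6 lower), and all genes called split into 959 higher and 7585 lower, against 3459 higher and 3898 lower with TMM. Calls among other receptors and ligands numbered 3 with that scaling, against 5 with TMM. Leaving out each library in turn gave 4 to 7 members called, 6392 to 6890 genes in all, 1 to 3 other semaphorins and plexins (1 without FOXP3-high replicate 3), 4 to 6 other receptors and ligands and 11 to 13 signalling genes. Whether the replicate numbers pair the libraries could not be settled. The correlations of same-numbered deviations were -0.10, 0.097 and 0.53 for numbers 1, 2 and 3, and that of number 3 was the highest of any pair. Deviations cancel within a group, so these correlations are not independent. With the replicate number as a block 6 members and 7029 genes were called, and Sema4d passed (-0.18, edgeR adjusted p = 0.0308). Sema7a and Sema4a rest on the fewest counts of the members.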
